A study of Mus musculus with 12 samples.

Results

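The AMPA and kainate receptor subunits of mouse cortical neurons are encoded by 9 genes, Gria1, Gria2, Gria3 and Gria4 for the AMPA receptors and Grik1, Grik2, Grik3, Grik4 and Grik5 for the kainate receptors. They were taken as the members of both gene families, and all 9 were found among the 23893 genes of the count table. Their transcripts were measured by RNA sequencing in cortical neuron cultures from C57BL6/J mouse embryos at E13.5-15.5. The 12 libraries fell into 4 groups of 3, and the samples of each group carried replicate numbers 1 to 3. WT-Veh and WT-Topot are labelled wild-type. By the study's methods these cultures came from Top1 fl/fl embryos and received a tdTomato lentivirus, so the controls carried the floxed alleles, a fluorescent protein and a virus too. Top1 cKO-Veh and Top1 cKO-Topot received tdTomato-P2A-CRE lentivirus, whose Cre recombinase cuts the floxed Top1 gene. Virus was added at day 3 in vitro under the CaMKIIα promoter, which limits expression to neurons, and about 85 to 90% of cells were transduced, so some cells of a Top1 cKO culture kept the gene. At day 15 in vitro the Topot cultures received 300 nM topotecan and the Veh cultures 0.003% DMSO, and all were harvested 3 days later. By the study the libraries of a group came from separate cultures. The p-values rest on the spread between these libraries, drawn largely from all genes together and not from each gene alone.

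AMPA receptors are tetramers of GluA subunits that carry most of the fast excitatory current at cortical synapses, and kainate receptors are tetramers of GluK subunits that act at excitatory and inhibitory terminals as well as after the synapse. GluA2, the product of Gria2, is edited in nearly all transcripts by the adenosine deaminase ADAR2, which turns a pore glutamine codon into one read as arginine and makes receptors that hold GluA2 nearly impermeable to calcium. GluK1 to GluK3, from Grik1 to Grik3, form channels on their own, while GluK4 and GluK5, from Grik4 and Grik5, need such a partner. TOP1 is the nuclear topoisomerase that relieves the supercoiling of DNA ahead of RNA polymerase. Topotecan traps it on DNA in a cleaved state, whereas deletion of Top1 removes it.

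The pore codon places the 9 subunits in 1 family and marks the base on which the editing of GluA2 acts, so 30 coding bases around it are shown for each gene, read from the mouse assembly NCBIM37 (mm9) with the codon in capitals. The capitals read CAG in 8 genes and CAA in Gria4. The codon lay at chr11:57056596-57056598 (plus strand) for Gria1, chr3:80510833-80510835 (minus) for Gria2, chrX:38963442-38963444 (plus) for Gria3 and chr9:4464137-4464139 (minus) for Gria4, in each case in coding exon 11. For the kainate receptor genes it lay at chr16:87940787-87940789 (minus, coding exon 11) for Grik1, chr10:48964135-48964137 (minus, coding exon 12) for Grik2, chr4:125368451-125368453 (plus, coding exon 12) for Grik3, chr9:42355706-42355708 (minus, coding exon 14) for Grik4 and chr7:25807516-25807518 (minus, coding exon 14) for Grik5.
Gria1: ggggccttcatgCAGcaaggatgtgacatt
Gria2: ggtgcctttatgCAGcaaggatgcgatatt
Gria3: ggtgcttttatgCAGcaaggatgtgatatt
Gria4: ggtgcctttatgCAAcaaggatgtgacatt
Grik1: ggagctctcatgCAGcaaggatcggagctg
Grik2: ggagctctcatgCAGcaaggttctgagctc
Grik3: ggctccctgatgCAGcaaggatctgaactg
Grik4: ggaggcttcatgCAGcaaggctccactatt
Grik5: ggtggcttcatgCAGcagggctcggagatc
Against the window of Gria2, the other AMPA receptor genes carried the same base at 26 (Gria1), 28 (Gria3) and 27 (Gria4) of 30 positions, and the kainate receptor genes at 20 to 23. The counts per gene hold no information on editing, so the edited share of Gria2 was not measured here.

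Total counts per library ran from 1730164 to 4583777, and values are given as CPM, a count divided by the scaled total of its library and multiplied by 1000000. Without the scaling, 1 CPM would stand for about 1.73 to 4.58 counts. Top1 itself was at 117, 163 and 124 CPM in the WT-Veh libraries and 129, 139.7 and 130.2 CPM in the WT-Topot ones. It was at 30.1, 44.0 and 27.1 CPM in the Top1 cKO-Veh libraries and 29.1, 37.5 and 28.4 CPM in the Top1 cKO-Topot ones. The log2 difference between Top1 cKO-Veh and WT-Veh was −1.98 (SE 0.233, adjusted p = 0.00119, edgeR quasi-likelihood test, Benjamini-Hochberg over all genes, threshold 0.01), in the direction of the labels. All 6 markers of glutamatergic neurons and all 5 of neurons in general were above 1 CPM in every group, and so were all 7 markers of GABAergic interneurons and 5 or 6 of 6 astrocyte markers, so the cultures were mixed. The markers of microglia summed to 0.398 to 17.5 CPM and those of endothelial and mural cells to 2.62 to 14.1 CPM, with Cldn5 at 0 in 3 groups. In bulk RNA, fewer cells of a type and less RNA per cell cannot be told apart. Libraries of the same replicate number were alike beyond their groups, and the fit with that number as a block is given beside each result of the 9 genes whose call it changed.

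In untreated control cultures Gria2 had the highest transcript level of the 9 genes and Grik4 the lowest. Per kilobase of annotated exon, WT-Veh levels were 136 ± 38.5 CPM (SD, n = 3) for Gria2 and 63.6 ± 10.3 for Gria1, the principal subunits of forebrain AMPA receptors. Grik5, a kainate subunit that needs a GluK1 to GluK3 partner, came next at 38.7 ± 7.02 CPM per kilobase. It was followed by Gria4 at 24.0 ± 6.66 and Gria3 at 16.0 ± 5.23 CPM per kilobase, then by Grik3 at 10.5 ± 2.28, Grik2 at 5.50 ± 1.29, Grik1 at 3.05 ± 1.90 and Grik4 at 0.469 ± 0.245. The ranges of neighbours in this order overlapped for Gria4 and Gria3, for Gria3 and Grik3, and for Grik2 and Grik1, and not for the others. The gene models of Grik1 (3.33 kb of exon) and Grik5 (3.84 kb) hold little untranslated sequence, so their levels per kilobase depend on the model. Before division by length, the WT-Veh mean of Grik5 (148 CPM) lay below those of Gria3 (158) and Gria4 (151), with overlapping ranges. Every member had counts in all 12 libraries, from 2 to 32 for Grik4 and 5 to 32 for Grik1 up to 1205 to 3041 for Gria2, so the values of Grik4 and Grik1 are the least precise.

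**Figure D1:**
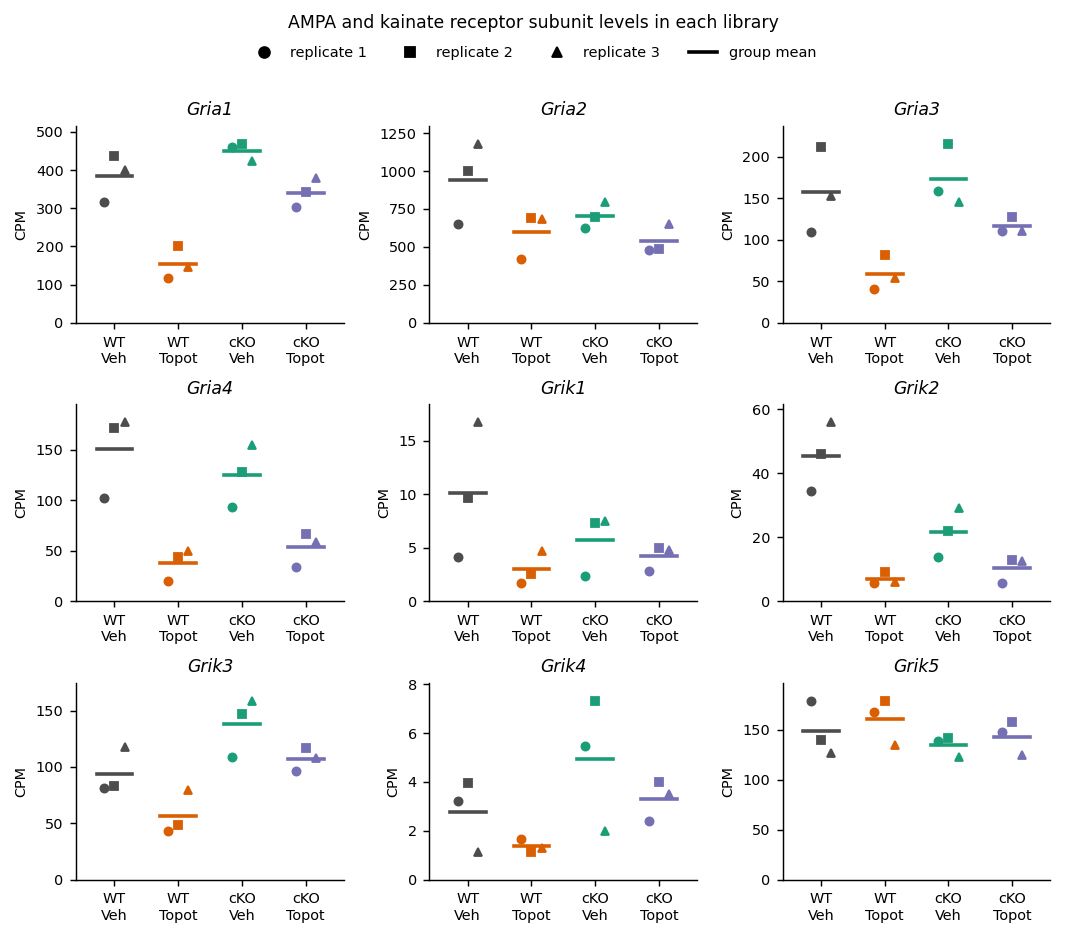
Transcript level of each AMPA and kainate receptor subunit gene in CPM (linear axes from 0, with a scale of its own for each gene) in the 12 libraries, by group, with symbols for replicates 1 to 3 and a bar at the group mean. Grik2 lay at 34.5 to 55.9 CPM in WT-Veh and at 5.70 to 9.16 in WT-Topot, while Grik5 lay between 123 and 179 CPM in all 12 libraries.

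The first comparison asked what 3 days of topotecan did to these transcripts in control cultures. Of the 9 genes, 4 fell past the threshold and none rose, against 2.04% of all genes tested that fell. The 4 were 3 of the 4 AMPA receptor genes (Gria1, Gria3 and Gria4) and 1 of the 5 kainate receptor genes (Grik2), and the median log2 fold change over the 9 was −1.31, beside 0 over all genes. With the replicate block, 7 of the 9 fell, against 5% of all genes, and Grik4 and Grik5 were the others.

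Gria1, which encodes the GluA1 subunit delivered to synapses during plasticity, was at 317, 438 and 399 CPM in WT-Veh and at 118, 200.1 and 146 CPM in WT-Topot. The groups did not overlap, and Gria1 fell by 1.31 on the log2 scale (SE 0.205, 95% CI −1.74 to −0.88, adjusted p = 3.46e-04, edgeR quasi-likelihood), to 59.6% below the control level. Gria3, an X-linked gene whose subunit often pairs with GluA2, was at 109, 212 and 152 CPM in WT-Veh and at 41.2, 82.1 and 54.4 CPM in WT-Topot. Its groups did not overlap either, and it fell by 1.41 (SE 0.260, adjusted p = 0.00184, edgeR quasi-likelihood), a loss of 62.2%. This call was lost when genes of low counts were filtered out with filterByExpr (adjusted p = 0.0122, in a range of 1.26e-14 to 0.0122 over the alternatives).

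Gria4, whose subunit is prominent in interneurons and early in development, was at 102, 172 and 177 CPM in WT-Veh and at 20.4, 43.5 and 50.1 CPM in WT-Topot. Every treated library lay below every control library, and Gria4 fell by 1.98 (SE 0.282, adjusted p = 1.27e-04, edgeR quasi-likelihood), to a level 74.7% lower. Gria2, the subunit that sets calcium permeability, was at 652, 1002 and 1178 CPM in WT-Veh and at 423, 691 and 686 CPM in WT-Topot. These ranges overlapped, since the lowest control library lay below the highest treated libraries, although the treated library was the lower of each same-numbered pair. The log2 difference of Gria2 was −0.65 (SE 0.217, 95% CI −1.10 to −0.20, adjusted p = 0.116, edgeR quasi-likelihood) and missed the threshold. It passed with the replicate block at −0.64 (adjusted p = 1.13e-07, the lowest of a range of 1.13e-07 to 0.377 over the alternatives), and it passed also without WT-Veh replicate 1 (−0.87, adjusted p = 0.00158).

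Among the kainate receptor genes, Grik2, the channel-forming subunit GluK2 of hippocampal and cortical receptors, gave the lowest fitted change of the 9 members. It was at 34.5, 46.0 and 55.9 CPM in WT-Veh and at 5.70, 9.16 and 5.995 CPM in WT-Topot. The groups lay far apart, and Grik2 fell by 2.67 (SE 0.300, 95% CI −3.30 to −2.04, adjusted p = 8.40e-06, edgeR quasi-likelihood), which left it 84.3% lower. Grik1, the channel-forming subunit GluK1 known from interneurons, was at 4.10, 9.64 and 16.7 CPM in WT-Veh and at 1.68, 2.58 and 4.71 CPM in WT-Topot. The highest treated library lay above the lowest control, and the log2 difference of −1.73 (SE 0.535, 95% CI −2.85 to −0.61, adjusted p = 0.0788, edgeR quasi-likelihood) did not pass. Grik1 passed with the replicate block at −1.71 (adjusted p = 7.49e-04, in a range of 7.49e-04 to 0.280) and without WT-Veh replicate 1 at −2.15 (adjusted p = 0.00209).

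Grik3, the low-affinity channel-forming subunit GluK3, was at 81.3, 82.8 and 117 CPM in WT-Veh and at 43.2, 48.4 and 79.2 CPM in WT-Topot. All 3 treated libraries lay below all 3 controls, but by little for the highest of them, and the log2 difference was −0.72 (SE 0.240, adjusted p = 0.117, edgeR quasi-likelihood). With the replicate block Grik3 passed at −0.74 (adjusted p = 1.15e-04, in a range of 1.15e-04 to 0.363).

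Grik5, the partner subunit GluK5 of most brain kainate receptors, was at 178, 139.8 and 127 CPM in WT-Veh and at 168, 179 and 134 CPM in WT-Topot. The groups overlapped over most of their range, and the log2 difference was 0.12 (95% CI −0.28 to 0.51, adjusted p = 1, edgeR quasi-likelihood), so that a loss of the size seen for Gria1 lay outside the interval. Grik4, the other partner subunit, was at 3.22, 3.94 and 1.15 CPM in WT-Veh and at 1.68, 1.14 and 1.28 CPM in WT-Topot, too few counts to show a change (log2 difference −1.04, SE 0.654, adjusted p = 0.627, edgeR quasi-likelihood).

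Markers of other cells moved in the same libraries. The 6 astrocyte markers summed to 1215 to 2894 CPM in WT-Veh and 566 to 1195 CPM in WT-Topot, and 2 of 6 fell past the threshold (4 with the block). The 7 GABAergic markers summed to 791 to 1739 CPM and 541 to 984 CPM, with 0 of 7 past the threshold (4 lower and 1 higher with the block). Markers of glutamatergic neurons summed to 1435 to 1575 CPM in WT-Veh and 1787 to 2106 CPM in WT-Topot, and 1 of 6 rose (3 with the block), beside 0.682% of all genes. The 5 markers of neurons in general summed to 3595 to 5193 CPM in WT-Veh and 3204 to 3891 CPM in WT-Topot, and 1 of 5 fell (3 lower and 1 higher with the block). Among 7 markers of the oligodendrocyte lineage none passed (1 lower and 1 higher with the block). Their part in the fall of the receptor genes was not tested.

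**Figure D2:**
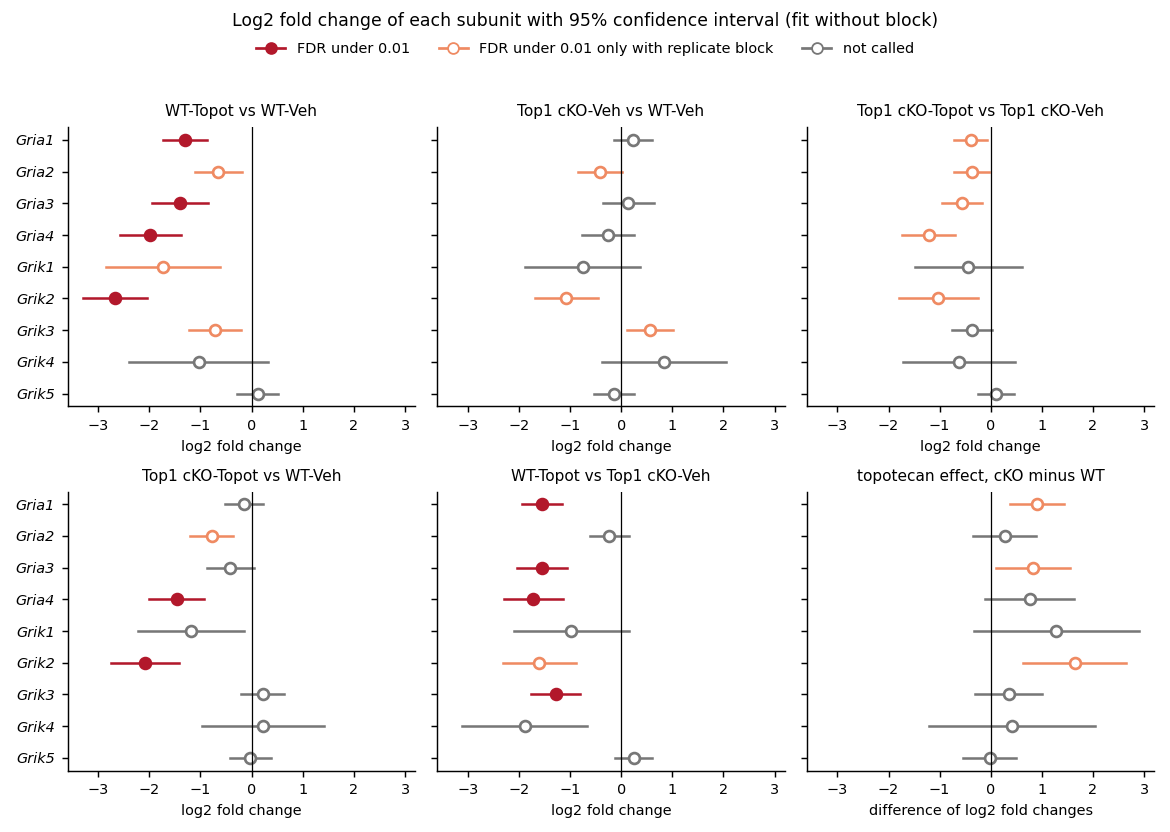
Fitted log2 fold change of each subunit gene (points) with its 95% confidence interval (lines) in the 5 group comparisons and the interaction of genotype with topotecan, from the edgeR quasi-likelihood fit without the replicate block. Filled points passed the threshold, open orange points passed only with the block, and open grey points did not pass. In WT-Topot against WT-Veh the 4 genes past the threshold lay at −1.31, −1.41, −1.98 and −2.67, and Grik5 at 0.12.

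The second comparison asked what loss of Top1 did without drug. None of the 9 genes passed the threshold in Top1 cKO-Veh against the same WT-Veh libraries, where 0.126% of all genes fell past it, and the median log2 difference over the members was −0.14. The edgeR quasi-likelihood test gave 1 member lower (Grik2) and 1 higher (Grik3) at an unadjusted p under 0.05, and DESeq2 and the edgeR exact test also called 0. With the replicate block 2 members were lower (2.95% of all genes) and 1 was higher (2.6% of all genes). Of genes of at least 1 CPM and over 100 kb, 11.8% were lower in that fit.

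Grik2 was at 13.7, 22.0 and 29.1 CPM in Top1 cKO-Veh, all below the lowest WT-Veh library at 34.5 CPM and all above the highest WT-Topot library at 9.16 CPM. Its log2 difference from WT-Veh was −1.07 (SE 0.291, 95% CI −1.69 to −0.45, adjusted p = 0.131, edgeR quasi-likelihood), and with the block it passed at −1.10 (adjusted p = 2.34e-06, in a range of 2.34e-06 to 0.326). Grik3 was at 109, 147 and 159 CPM, higher than its WT-Veh partner in each pair but with overlap between the groups. Its log2 difference was 0.56 (SE 0.211, 95% CI 0.11 to 1.01, adjusted p = 0.369, edgeR quasi-likelihood), and with the block it passed at 0.56 (adjusted p = 0.00121, in a range of 0.00121 to 0.825).

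The AMPA receptor genes had smaller fitted differences from WT-Veh in Top1 cKO-Veh than Grik2 and Grik3 had. Gria1 was at 459.9, 468 and 423 CPM (log2 difference 0.23, SE 0.172, adjusted p = 0.910, edgeR quasi-likelihood), and 2 of the 3 libraries lay above the highest control. Gria2 was at 626, 696 and 795 CPM, inside or below the control range, with a log2 difference of −0.42 (SE 0.201, 95% CI −0.85 to 0.01, adjusted p = 0.592, edgeR quasi-likelihood). With the block Gria2 passed at −0.38 (adjusted p = 0.00165, in a range of 0.00165 to 0.977). Gria3 was at 159, 215 and 145 CPM and Gria4 at 93.1, 128 and 155 CPM, each overlapping WT-Veh, with log2 differences of 0.14 and −0.26.

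The remaining kainate receptor genes also overlapped their controls. Grik1 was at 2.35, 7.33 and 7.52 CPM (log2 difference −0.76, adjusted p = 0.866, edgeR quasi-likelihood). Grik4 was at 5.47, 7.33 and 2.004 CPM (log2 difference 0.83, SE 0.570, adjusted p = 0.859, edgeR quasi-likelihood), and Grik5 at 139, 142 and 123 CPM (log2 difference −0.14). The summed astrocyte markers (1243 to 3340.1 CPM) and GABAergic markers (1188 to 1389.6 CPM) of Top1 cKO-Veh lay within or near the WT-Veh range, and no marker of any cell type passed the threshold. With the block 1 glutamatergic and 1 microglial marker were lower, and 1 marker each of GABAergic interneurons, neurons in general and the oligodendrocyte lineage was higher.

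The third comparison asked whether topotecan still acted in Top1 cKO cultures. Some of their cells kept the gene, and Top1 was still at 27.1 to 44.0 CPM in Top1 cKO-Veh. In which cells the drug acted was not tested. None of the 9 genes passed in Top1 cKO-Topot against Top1 cKO-Veh, where only 0.00837% of all genes fell past the threshold (2 genes), and the median log2 difference over the members was −0.44. By the edgeR quasi-likelihood test 5 members were lower at an unadjusted p under 0.05, DESeq2 called 1 (Gria4) and the edgeR exact test 0. The replicate block gave 5 members lower, against 1.74% of all genes, namely all 4 AMPA receptor genes and Grik2. In that fit 10.9% of genes of at least 1 CPM and over 100 kb were lower.

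Gria4 was at 34.3, 66.8 and 59.0 CPM in Top1 cKO-Topot, and none of these reached the lowest Top1 cKO-Veh library at 93.1 CPM. Its log2 difference was −1.22 (SE 0.248, 95% CI −1.74 to −0.69, adjusted p = 0.0897, edgeR quasi-likelihood). It passed with the block at −1.22 (adjusted p = 2.36e-15), by DESeq2 (adjusted p = 0.00265) and without Top1 cKO-Veh replicate 1 (−1.39, adjusted p = 2.26e-04) or replicate 3 (−1.04, adjusted p = 0.00548), in a range of 2.36e-15 to 0.307 over the alternatives. Grik2 was at 5.58, 13.0 and 12.7 CPM, all below the Top1 cKO-Veh libraries, the highest by little. Its log2 difference was −1.03 (SE 0.362, adjusted p = 0.784, edgeR quasi-likelihood), and with the block −1.03 (adjusted p = 0.00133, in a range of 0.00133 to 1).

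Gria1 was at 302, 342 and 379 CPM and Gria3 at 111, 128 and 111 CPM in Top1 cKO-Topot, and neither overlapped its Top1 cKO-Veh libraries. The log2 difference of Gria1 was −0.39 (SE 0.151, adjusted p = 0.928, edgeR quasi-likelihood), with the block −0.40 (adjusted p = 3.21e-04, in a range of 3.21e-04 to 1). That of Gria3 was −0.57 (SE 0.183, adjusted p = 0.635, edgeR quasi-likelihood), with the block −0.56 (adjusted p = 7.45e-05, in a range of 7.45e-05 to 1). Gria2 was at 480.0, 489 and 654 CPM, which overlapped Top1 cKO-Veh, and its log2 difference of −0.37 (adjusted p = 1, edgeR quasi-likelihood) became −0.38 with the block (adjusted p = 9.83e-05, in a range of 9.83e-05 to 1).

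The other kainate receptor genes did not pass with or without the block. Grik3 was at 96.4, 117 and 108 CPM (log2 difference −0.36), Grik1 at 2.79, 4.98 and 4.81 CPM (−0.44), Grik4 at 2.39, 3.99 and 3.50 CPM (−0.62) and Grik5 at 147, 157 and 125 CPM (0.10). Astrocyte markers moved in this comparison too, from a sum of 1243 to 3340.1 CPM to one of 585 to 1616 CPM, with 0 of 6 past the threshold and 3 lower with the block. The glutamatergic markers summed to 1326 to 1446.5 CPM in Top1 cKO-Veh and 1238 to 1286 CPM in Top1 cKO-Topot, with 0 of 6 past the threshold and 1 higher with the block. The block also called 2 of 7 oligodendrocyte markers higher and 1 of 5 markers of neurons in general lower. The part of these markers was not tested.

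Whether the effect of topotecan differed between genotypes was tested as an interaction over all 12 libraries, in which a positive value stands for a smaller loss, or a larger gain, in Top1 cKO cultures. None of the 9 members passed, where 0.398% of all genes were higher and 0.0377% lower, and the median over the members was 0.76. The edgeR quasi-likelihood test gave 3 members higher at an unadjusted p under 0.05, and DESeq2 called 0. With the block 3 members passed, all higher, against 2.44% of all genes higher and 1.53% lower. Of genes of at least 1 CPM and over 100 kb, 352 of 1955 were higher in that fit. Grik2 had an interaction of 1.64 (SE 0.486, adjusted p = 0.132, edgeR quasi-likelihood), with the block 1.64 (adjusted p = 0.00103, in a range of 0.00103 to 0.298). For Gria1 it was 0.91 (SE 0.257, adjusted p = 0.107, edgeR quasi-likelihood), with the block 0.90 (adjusted p = 5.84e-05, in a range of 5.84e-05 to 0.291). For Gria3 it was 0.83 (SE 0.346, adjusted p = 0.458, edgeR quasi-likelihood), with the block 0.84 (adjusted p = 0.00255, in a range of 0.00255 to 0.847). Gria4, the member with the lowest fitted difference under topotecan in Top1 cKO cultures, had an interaction of 0.76 that did not pass with the block (adjusted p = 0.0108, in a range of 0.0108 to 1). No marker of another cell type had a called interaction without the block. With it 2 of 6 glutamatergic markers were lower, 2 of 5 markers of neurons in general were higher and 1 lower, and 1 GABAergic and 1 astrocyte marker were higher, and their part was not tested.

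Topotecan treatment and deletion of Top1 were compared directly between WT-Topot and Top1 cKO-Veh, groups that differ in both drug and genotype. Here 4 of the 9 genes were lower with topotecan and none was higher, against 1.23% of all genes lower and 0.293% higher. Of genes of at least 1 CPM and over 100 kb, as all members but Grik5 are, 11.3% were lower (33.4% with the block). The median log2 difference over the members was −1.54. Gria1 differed by −1.54 (SE 0.186, adjusted p = 1.24e-04, edgeR quasi-likelihood) and Gria3 by −1.55 (SE 0.234, adjusted p = 8.12e-04, same test). Each was thus lower in WT cultures with topotecan than in Top1 cKO cultures with vehicle. Gria4 differed by −1.72 (SE 0.273, adjusted p = 0.00120, edgeR quasi-likelihood), and with filterByExpr it missed the threshold (adjusted p = 0.0104, in a range of 7.19e-12 to 0.0104). None of the WT-Topot libraries of these 3 genes reached the lowest Top1 cKO-Veh library.

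Grik3 was the kainate receptor gene that passed in this comparison, with a log2 difference of −1.28 (SE 0.230, adjusted p = 0.00333, edgeR quasi-likelihood) between 43.2 to 79.2 CPM in WT-Topot and 109 to 159 CPM in Top1 cKO-Veh. That call was lost with filterByExpr (adjusted p = 0.0144), and when either WT-Topot replicate 1 (0.0139) or Top1 cKO-Veh replicate 2 (0.0128) was left out, in a range of 1.71e-09 to 0.0144. Grik2 just missed the threshold at −1.60 (SE 0.338, adjusted p = 0.0109, edgeR quasi-likelihood) and passed with the block at −1.56 (adjusted p = 2.02e-05, in a range of 2.02e-05 to 0.0449), which made 5 members lower against 4.8% of all genes lower and 2.93% higher. Gria2 (−0.23), Grik1 (−0.98), Grik4 (−1.89, SE 0.576, adjusted p = 0.0946, edgeR quasi-likelihood) and Grik5 (0.25) did not pass, although Grik4 did without Top1 cKO-Veh replicate 3 (−2.22, adjusted p = 0.00727). In the same comparison 2 of 6 astrocyte markers (3 with the block), 1 of 7 GABAergic markers (5 with the block) and 2 of 5 markers of neurons in general (2 with the block) were lower. With the block 2 of 6 glutamatergic markers were higher and 1 of 7 oligodendrocyte markers was lower, and the part of these markers was not tested.

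With both manipulations together, in Top1 cKO-Topot against WT-Veh, 2 of the 9 genes were lower and none was higher. Of all genes, 1.21% were lower and 0.473% higher, and of genes of at least 1 CPM and over 100 kb 8.74% were lower (18.3% with the block). Grik2 differed by −2.09 (SE 0.320, adjusted p = 3.37e-04, edgeR quasi-likelihood), a level 76.5% lower. Gria4 differed by −1.47 (SE 0.255, adjusted p = 0.00135, edgeR quasi-likelihood), a level 63.8% lower, and missed the threshold with filterByExpr (adjusted p = 0.0137, in a range of 8.41e-10 to 0.0137). Gria2 differed by −0.78 (SE 0.202, adjusted p = 0.0332, edgeR quasi-likelihood) and passed with the block at −0.75 (adjusted p = 2.28e-06, in a range of 2.28e-06 to 0.157), which made 3 members lower against 4.02% of all genes lower and 3.34% higher. Gria1 (−0.15), Gria3 (−0.42), Grik1 (−1.18), Grik3 (0.22), Grik4 (0.22) and Grik5 (−0.03) did not pass. The astrocyte markers summed to 585 to 1616 CPM, against 1215 to 2894 CPM in WT-Veh, with 0 of 6 past the threshold and 4 lower with the block. The oligodendrocyte markers summed to 134 to 297 CPM, against 95.6 to 154 CPM, with 0 of 7 past the threshold and 2 higher with the block. The glutamatergic markers summed to 1238 to 1286 CPM, against 1435 to 1575 CPM in WT-Veh, with 1 of 6 higher (1 higher and 1 lower with the block). With the block 1 microglial marker was lower and 1 marker each of GABAergic interneurons and neurons in general was higher. Their part was not tested. This comparison and the first and second share the WT-Veh libraries, so that a chance shift of those libraries moves all 3 together.

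The makeup of the transcript pools followed from these levels and is given as shares of the summed level per kilobase of exon, with no test. Gria2 made up 54.0, 54.3 and 60.7% of the AMPA receptor transcripts in WT-Veh and 69.3, 67.3 and 72.3% in WT-Topot. It made up 45.7, 45.5 and 51.1% in Top1 cKO-Veh and 50.8, 46.7 and 53.0% in Top1 cKO-Topot, so the shares of the WT-Topot libraries were above those of all other libraries. The mean share of Gria1 was 27.0% with vehicle and 20.8% with topotecan in WT cultures, and 35.1% and 36.6% in Top1 cKO cultures. Gria4 held 9.96% and 9.28% with vehicle (WT, then Top1 cKO) and 4.75% and 5.47% with topotecan. The summed AMPA receptor level per kilobase was 239 ± 57.4 CPM (SD, n = 3) with vehicle and 124 ± 31.8 with topotecan in WT cultures, and 214 ± 14.4 and 154 ± 21.1 in Top1 cKO cultures.

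**Figure D3:**
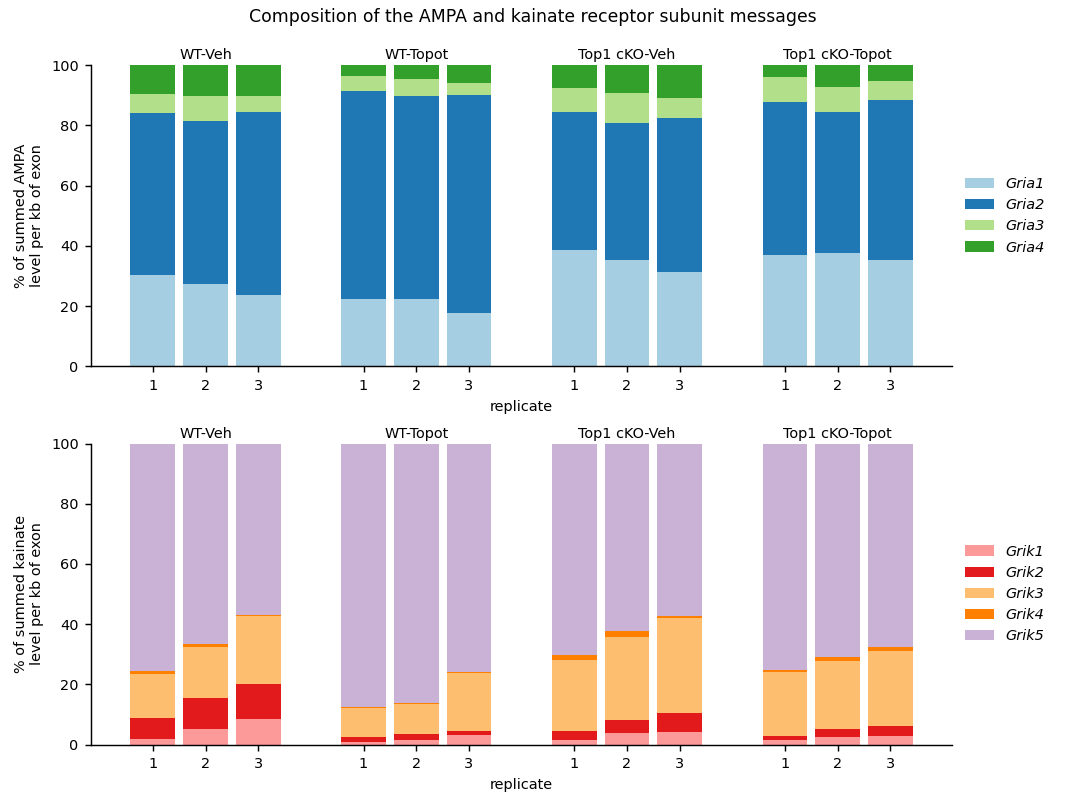
Share (percent) of each subunit gene in the summed level per kilobase of exon of the AMPA receptor genes (upper panel) and the kainate receptor genes (lower panel), as 1 stacked bar for each of the 12 libraries, by group and replicate. The mean Gria2 share was 56.3% in WT-Veh and 69.6% in WT-Topot, and the mean Grik5 share was 66.3% and 83.2%.

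In the kainate receptor pool Grik5 held a mean share of 66.3% with vehicle and 83.2% with topotecan in WT cultures, and 63.3% and 71.3% in Top1 cKO cultures. Grik2 held 9.52, 1.66, 4.65 and 2.40% in the same order, and Grik3 held 18.0, 12.9, 27.5 and 22.8%. Shares of Grik3 overlapped between vehicle and topotecan in both genotypes (14.7 to 22.5% and 9.62 to 19.1% in WT cultures). Those of Grik5 overlapped in Top1 cKO cultures only (57.5 to 70.2% and 67.7 to 75.2%), and those of Grik2 in neither genotype. The summed kainate receptor level per kilobase was 58.1 ± 3.37 CPM (SD, n = 3) and 50.2 ± 3.97 in WT cultures without and with topotecan, and 55.7 ± 3.89 and 52.3 ± 4.93 in Top1 cKO cultures. By CPM without division by length, Grik5 held 49.5, 70.1, 44.6 and 53.5% in the 4 groups, lower throughout but in the same order.

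The study set its changes in transcript level against gene length. From first to last exon the members spanned 62.5 kb (Grik5, chr7:25794872-25857388, minus strand), 117.9 kb (Gria2, chr3:80488858-80606713, minus), 223.5 kb (Grik3, chr4:125167944-125391417, plus) and 277.7 kb (Gria3, chrX:38754031-39031778, plus). The longer ones spanned 318.9 kb (Gria1, chr11:56824889-57143746, plus), 378.3 kb (Gria4, chr9:4417899-4796234, minus), 393.5 kb (Grik1, chr16:87896441-88289947, minus), 426.4 kb (Grik4, chr9:42326218-42752576, minus) and 689.3 kb (Grik2, chr10:48819266-49508572, minus), all in NCBIM37. Exons of Gria2, Gria3 and Gria4 overlap those of other annotated genes, and whether counting used strand is not given in the sources used here, so reads of the partners could not be told apart.

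Across the 9 members, which share their libraries and are no replicates of each other, Pearson's r between genomic length and log2 difference was −0.90 for WT-Topot against WT-Veh, and −0.83 without Grik2, the longest. The shortest member, Grik5, had a difference of 0.12, and the longest, Grik2, one of −2.67. For Top1 cKO-Veh against WT-Veh r was −0.35, and it turned to 0.18 without Grik2. For Top1 cKO-Topot against Top1 cKO-Veh it was −0.76 (−0.70 without Grik2), and for the interaction 0.86 (0.73 without Grik2). For Top1 cKO-Topot against WT-Veh r was −0.63, but only −0.25 without Grik2. For WT-Topot against Top1 cKO-Veh it was −0.73 (−0.86 without Grik2). Among genes of at least 1 CPM and over 100 kb, 352 of 1951 (18.0%) fell in WT-Topot against WT-Veh, and 4 of the 8 members over 100 kb did. The block raised these counts to 666 of 1951 (34.1%) and 7 of 8.

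The promoters of Grik2 and Gria4, the pair lowered also in Top1 cKO-Topot, and of Grik5, which was not lowered, are shown because they belong to genes at either end of the range of change. They are the 250 bases before the RefSeq start in GRCm38.p6, given 5′ to 3′ on the strand of the gene, with GC boxes (GGGCGG or its reverse complement CCGCCC, the site bound by Sp1) in capitals. They lie at chr10:49788755-49789004 (minus strand) for Grik2, chr9:4796235-4796484 (minus) for Gria4 and chr7:25072370-25072619 (minus) for Grik5.
Grik2: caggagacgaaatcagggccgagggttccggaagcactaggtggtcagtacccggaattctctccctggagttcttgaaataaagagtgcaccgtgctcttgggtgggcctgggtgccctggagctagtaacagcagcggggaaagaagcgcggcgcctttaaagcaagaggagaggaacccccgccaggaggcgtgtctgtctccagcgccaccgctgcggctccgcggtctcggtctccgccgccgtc
Gria4: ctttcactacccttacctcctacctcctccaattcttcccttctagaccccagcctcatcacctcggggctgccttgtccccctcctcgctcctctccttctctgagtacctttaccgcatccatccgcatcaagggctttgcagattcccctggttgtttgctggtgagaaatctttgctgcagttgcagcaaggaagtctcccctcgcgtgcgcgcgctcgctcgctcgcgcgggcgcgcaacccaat
Grik5: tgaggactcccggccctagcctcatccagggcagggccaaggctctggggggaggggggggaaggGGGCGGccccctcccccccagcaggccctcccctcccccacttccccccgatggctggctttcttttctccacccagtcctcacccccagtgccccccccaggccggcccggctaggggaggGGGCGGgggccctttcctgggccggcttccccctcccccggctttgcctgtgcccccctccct
RefSeq promoters were matched for 6 of the 9 members (Gria2, Gria4, Grik2, Grik3, Grik4 and Grik5), and those of Gria1, Gria3 and Grik1 are named only. GC boxes numbered 0 in Gria2, 0 in Gria4, 0 in Grik2, 6 in Grik3, 1 in Grik4 and 2 in Grik5, where 32.7% of 32851 promoters of that length held at least 1. The TGACG core of the cAMP response element, searched on both strands, was in none of the 6 (17.8% of all promoters held it), and TATAAA was in none either (12.4%). CG dinucleotides, counted over the same 250 bases, numbered 19 in Gria2, 16 in Gria4, 20 in Grik2, 42 in Grik3, 36 in Grik4 and 8 in Grik5. The median over the 32851 promoters was 6. A match is a description of these letters and not a bound site.

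Genes that act with the receptors were read from a list of 34 auxiliary subunits, trafficking and scaffold proteins, extracellular partners and RNA editing enzymes, of which 33 were in the table. In WT-Topot against WT-Veh 3 of 33 fell (2.04% of all genes) and 0 rose, with a median log2 difference of −0.11. The block gave 10 lower (5% of all genes) and 3 higher (3.24%). In Top1 cKO-Veh against WT-Veh none passed in either direction by the edgeR quasi-likelihood test, with 3 lower and 6 higher at an unadjusted p under 0.05, while the block gave 1 lower (2.95% of all genes) and 8 higher (2.6%). For Top1 cKO-Topot against Top1 cKO-Veh none passed, with 3 lower and 2 higher at an unadjusted p under 0.05, while the block gave 2 lower (1.74% of all genes) and 2 higher (0.858%). In Top1 cKO-Topot against WT-Veh 0 were lower and 1 was higher (0.473% of all genes), and the block gave 3 lower (4.02%) and 5 higher (3.34%). In WT-Topot against Top1 cKO-Veh 2 were lower (1.23% of all genes) and 1 was higher (0.293%), and the block gave 15 lower (4.8%) and 1 higher (2.93%). The interaction was higher for 1 of 33 (0.398% of all genes), and the block gave 2 lower (1.53%) and 4 higher (2.44%).

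Nptx2, a secreted pentraxin that gathers AMPA receptors at synapses on interneurons, was at 65.0, 362 and 130.2 CPM in WT-Veh and at 28.1, 14.0 and 37.3 CPM in WT-Topot. Every treated library lay below every control, and Nptx2 fell by 2.83 (SE 0.454, adjusted p = 4.43e-04, edgeR quasi-likelihood). The Top1 cKO-Veh libraries held 164, 150.0 and 193 CPM of Nptx2, and those of Top1 cKO-Topot 290.4, 129 and 319 CPM. With topotecan, 2 of the 3 Top1 cKO libraries thus lay above all those with vehicle, and the interaction of Nptx2 was 3.37 (SE 0.628, adjusted p = 0.00786, edgeR quasi-likelihood). WT-Topot also lay below Top1 cKO-Veh, by −2.69 (SE 0.269, adjusted p = 2.72e-05, edgeR quasi-likelihood). Within Top1 cKO cultures the block called Nptx2 higher with topotecan than with vehicle, by 0.46.

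Dlg1, the scaffold protein SAP97 that binds GluA1, was at 215, 284 and 210.2 CPM in WT-Veh and at 102, 123 and 113 CPM in WT-Topot, and fell by 1.06 (SE 0.188, adjusted p = 0.00120, edgeR quasi-likelihood). Grip1, whose product anchors GluA2 and GluA3, was at 23.1, 43.4 and 27.1 CPM in WT-Veh and at 6.70, 14.6 and 11.99 CPM in WT-Topot. It fell by 1.48 (SE 0.330, adjusted p = 0.00944, edgeR quasi-likelihood), and the groups of neither gene overlapped. Neto1, an auxiliary subunit of kainate receptors, was at 102, 129.6 and 118 CPM in Top1 cKO-Veh and at 31.8, 51.2 and 49.2 CPM in WT-Topot, a difference of −1.41 (SE 0.210, adjusted p = 7.40e-04, edgeR quasi-likelihood). Cpt1c, which takes part in the biogenesis of AMPA receptors, went the other way, at 48.1, 40.3 and 44.1 CPM in Top1 cKO-Veh and 99.2, 91.9 and 72.4 CPM in WT-Topot (log2 difference 1.00, SE 0.197, adjusted p = 0.00680, edgeR quasi-likelihood). Some further comparisons of these genes passed only with the block. Dlg1 was then lower than in WT-Veh also in Top1 cKO-Veh (−0.64) and Top1 cKO-Topot (−0.52), with an interaction of 1.17, and Grip1 was lower in Top1 cKO-Topot (−1.34). Neto1 was then lower in WT-Topot than in WT-Veh (−0.75) but higher in Top1 cKO-Veh (0.67) and Top1 cKO-Topot (0.65).

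C1ql3, a secreted synaptic protein, was at 152, 371 and 238 CPM in WT-Veh and at 484, 587 and 583 CPM in Top1 cKO-Topot, and was higher by 1.14 (SE 0.238, adjusted p = 0.00699, edgeR quasi-likelihood). With the block C1ql3 also passed in WT-Topot (0.42) and Top1 cKO-Veh (0.84) against WT-Veh, with topotecan within Top1 cKO cultures (0.36), and in WT-Topot against Top1 cKO-Veh (−0.43). Adarb1, which encodes the ADAR2 enzyme that edits Gria2, was at 193, 337 and 218 CPM in WT-Veh and at 209, 259.9 and 223 CPM in WT-Topot, groups that overlapped (log2 difference −0.11, adjusted p = 1, edgeR quasi-likelihood). Its Top1 cKO-Veh libraries were at 278, 399 and 314 CPM and its Top1 cKO-Topot libraries at 331, 411 and 335 CPM. Against WT-Veh these were differences of 0.40 (adjusted p = 0.690) and 0.55 (adjusted p = 0.188) by edgeR quasi-likelihood, which passed with the block at 0.43 and 0.58. Between WT-Topot and Top1 cKO-Veh the block called Adarb1 lower with the drug (−0.51).

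**Figure D4:**
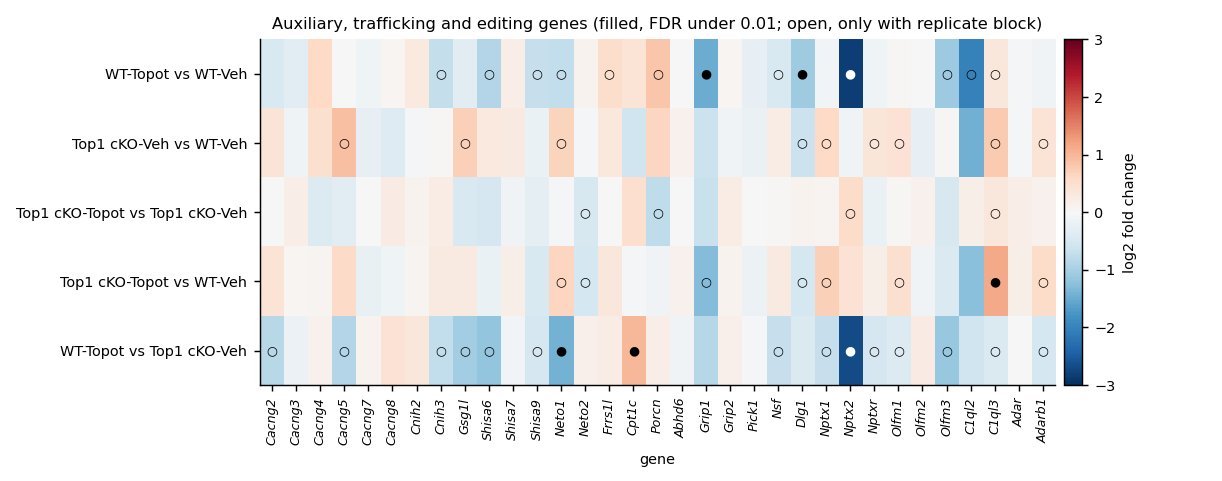
Fitted log2 difference of the 33 listed receptor-associated genes (columns) in the 5 group comparisons (rows), as a colour scale, with a filled dot on calls past the threshold without the replicate block and an open dot on those that passed only with it. Nptx2 was at −2.83 in WT-Topot against WT-Veh and at −2.69 in WT-Topot against Top1 cKO-Veh.

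Across the 12 libraries the members did not vary as a single set. Pearson's r of log2(CPM + 1), a description over libraries that share groups and depth, was highest for Gria1 with Gria3 (0.96) and for Gria4 with Grik2 (0.92), and Grik5 was negative with each of the 8 others (−0.69 to −0.07). Gria2, Gria4, Grik1, Grik2 and Grik3 were lowest in replicate 1 of all 4 groups. There the summed astrocyte markers were highest, and those of GABAergic interneurons and of neurons in general were lowest. Grik5 was lowest in replicate 3 of all 4 groups. Among 9500 other genes of at least 10 CPM, the patterns most like that of Gria2 were those of Snx13 (r = 0.94), Fnbp1l (0.93), E130307A14Rik (0.92), Esco1 (0.90) and Gpm6a (0.90). For Grik5 they were those of Anapc1 (0.95), Irf2bp2 (0.92), Ptprf (0.92), Tmem209 (0.92) and Sh2b1 (0.91).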

How the data were processed

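Libraries of polyA RNA, per the labels, were by the study's methods sequenced as 50 bp paired-end reads, cleaned with TagDust, aligned with TopHat (default settings, mm9 genome) and freed of rRNA reads. The authors deposited unnormalised counts, with the RefSeq exons of each gene symbol summed. The counter, its strand setting and the tool versions are not given in the sources used here. The table held 23893 genes, of which 5182 had no count. Groups came from the sample titles. The 5 comparisons used the 6 libraries of each pair, and the interaction all 12, with edgeR 4.0.16 (R 4.3.3) glmQLFit and glmQLFTest, TMM scaling, no gene filter, and Benjamini-Hochberg adjustment over all genes at 0.01. The methods name edgeR and raw counts but not which of its tests. CPM used TMM-scaled library sizes. Scripts were tested on simulated counts, where genes of outlying spread gave more false calls than the threshold allows.

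Every member was named. From the list of receptor-associated genes, each gene past the threshold was named (up to 10 a comparison), and Adarb1 in any case. Members and lists were chosen with earlier results of these data known. Pairing was checked on 13720 genes: deviations from the group means correlated at 0.261 to 0.485 for all 18 pairs of libraries with the same replicate number and at −0.384 to −0.0494 for the 36 others. Deviations cancel within a group, so the negative values follow from the positive ones and are no separate evidence. From the 18 positive values the numbers were taken to pair the samples. Alternatives were the replicate block, DESeq2 1.42.0 size factors, filterByExpr, the DESeq2 Wald test, all 12 libraries in 1 fit, the edgeR exact test, leaving out each library, shares by CPM, and length without the longest member. Gene positions and exon lengths came from GENCODE vM1 (NCBIM37), and promoters from RefSeq (GRCm38.p6).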

Additional observations from a re-analysis of the deposited data

Results flagged for a closer look

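The effect of topotecan differed between genotypes for 3 of the 9 subunit genes by the interaction test with the replicate number as a block, and for none of them without it (edgeR quasi-likelihood, where 3 had an unadjusted p under 0.05). The interaction (effect in Top1 cKO minus effect in WT, log2) was 0.90 for Gria1, 0.84 for Gria3 and 1.64 for Grik2, positive in each. Of all genes, 2.44% were called higher and 1.53% lower in that fit. Among genes of at least 1 CPM and over 100 kb, which include these 3, 352 of 1955 were called higher. Gria1 went from a mean near the control level in Top1 cKO-Veh to a lower one in Top1 cKO-Topot, but by less than between WT-Veh and WT-Topot. The 3 values rest on 3 libraries a group, and the block fit draws its spread mostly from that of all genes.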

How the results depend on the processing

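Of 671 recomputed log2 fold changes of the 9 genes, 623 kept their direction and side of the threshold, 29 came to pass it, 6 no longer passed and 13 changed sign. With the replicate block the count of lower members became 7 in WT-Topot against WT-Veh and 5 in Top1 cKO-Topot against Top1 cKO-Veh, while Top1 cKO-Veh against WT-Veh gave 2 lower and 1 higher and the interaction 3 higher. Among the 9 genes the pairing changed no other call than those given beside the results. The block fits took 38.2 to 47786 total degrees of freedom (15.7 to 20.4 without the block), so they rest on a spread pooled over genes more than on that of each gene. DESeq2's Wald test called 1 member (Gria4) lower in Top1 cKO-Topot against Top1 cKO-Veh. With filterByExpr the count of lower members fell to 3 in WT-Topot against WT-Veh, because Gria3 then lay above 0.01. It fell to 1 in Top1 cKO-Topot against WT-Veh and to 2 in WT-Topot against Top1 cKO-Veh, because Gria4, and in the latter also Grik3, then lay above 0.01. Leaving out each library in turn gave 4 to 6 lower members in WT-Topot against WT-Veh, 0 to 1 in Top1 cKO-Topot against Top1 cKO-Veh, 2 to 3 in Top1 cKO-Topot against WT-Veh and 3 to 6 in WT-Topot against Top1 cKO-Veh. The 6 in the first came without WT-Veh replicate 1, which added Gria2 and Grik1, and the 3 in the third without WT-Veh replicate 1 or Top1 cKO-Topot replicate 3, which added Gria2 (−0.99 and −0.94). In the fourth, Grik3 was lost without WT-Topot replicate 1 or Top1 cKO-Veh replicate 2, Grik2 was gained without WT-Topot replicate 2 or Top1 cKO-Veh replicate 1 or 3, by DESeq2 (adjusted p = 0.00321) and by the edgeR exact test (adjusted p = 0.00161, in a range of 2.02e-05 to 0.0449), and Grik4 was gained without Top1 cKO-Veh replicate 3.

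The sign changes were all in genes that passed under no setting of the comparison. Leaving out each library in turn moved Gria3 in Top1 cKO-Veh against WT-Veh between −0.076 and 0.4149 (also −0.0516, without Top1 cKO-Veh replicate 2) and Grik5 between −0.2364 and 0.0147. It moved Grik4 in Top1 cKO-Topot against WT-Veh between −0.0812 and 0.4962, Grik5 there between −0.1306 and 0.1208 (also 0.0579, with Top1 cKO-Topot replicate 3 left out), and the interaction of Grik5 between −0.1829 and 0.0743. The interaction of Grik5 turned positive also with DESeq2 size factors (0.0046) and by the DESeq2 Wald test (0.0061). Pearson's r of length in Top1 cKO-Veh against WT-Veh turned to 0.1774 without Grik2. The cause was not tested. With 3 libraries a group and as few as 2 counts of Grik4 and 5 of Grik1, a change of these 2 genes would have to be large to pass.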
